A study of Mus musculus with 15 samples.

Results

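Cells make cholesterol from acetyl-CoA through the mevalonate pathway, take it up from lipoproteins and send the surplus out through membrane transporters, and 27 genes of these routes are described here. They were listed by gene symbol for their known role, with earlier results of these data known, and all 27 are among the 24421 genes of the deposited count table. The table covers 15 RNA-seq libraries of MAP cells, 1 immortalized line of mouse adipocyte progenitors, in 5 groups of 3 libraries. Cells of every group, the vehicle group included, had first been differentiated into adipocytes with insulin, isobutylmethylxanthine, dexamethasone and 1 uM rosiglitazone for 2 days and then with insulin and rosiglitazone for 2 days. At day 7 to 8 the Rosi3D cells received rosiglitazone, an activator of PPARγ, for 3 days, the vehicle cells received vehicle, and the other cells received forskolin, an activator of adenylyl cyclase, for 4 h (FSK4h), for 1 day (FSK1D) and for 3 days (FSK3D). The labels describe both agents as inducers of adipocyte browning. No source used here gives the doses of these later treatments or the harvest time of the vehicle cells, and the Rosi3D group received for a second time an agent that all groups had met before.

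The pathway is governed by a loop in the endoplasmic reticulum. When sterols are scarce, SCAP escorts the transcription factor SREBP-2, the product of Srebf2, to the Golgi, where it is cut free and turns on the synthesis genes together with the CCAAT-binding factor NF-Y, and when sterols are plentiful the INSIG proteins hold SCAP back. Surplus oxysterols activate the LXR receptors, which raise the efflux pumps Abca1 and Abcg1 and the ubiquitin ligase Mylip, a brake on lipoprotein receptors. White adipocytes are a large store of the cholesterol of the body, held in membranes and at the surface of the lipid droplet, and the related factor SREBP-1 serves fatty acid synthesis.

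Because the synthesis genes are known for promoters that carry SREBP-2 and NF-Y sites, and forskolin acts through cAMP and the CREB family, 4 promoters of members with large changes are shown. They are those of Hmgcs1, the condensing enzyme at the head of the pathway (chr13:119690201-119690350, plus strand), and of Hsd17b7, a late sterol reductase (chr1:169969206-169969355, minus strand). The others are those of Insig1, the sterol-regulated anchor of SCAP (chr5:28071162-28071411, plus strand), and of Lss, which closes squalene into the sterol ring (chr10:76531455-76531604, plus strand). The stretches come from RefSeq promoters on GRCm38.p6 and read 5′ to 3′ on the strand of the gene. Those of Hmgcs1, Hsd17b7 and Lss are the 150 bases before the RefSeq start, and that of Insig1 the 250 bases before it. The matches of Insig1 begin 240 and 216 bases before the start, so its nearest 150 bases hold none. Capitals mark, on either strand, the CCAAT box (CCAAT, or ATTGG when it lies on the opposite strand), the core of the cAMP response element (TGACG or CGTCA) and the core of the sterol response element (TCACNCCAC).
Hmgcs1: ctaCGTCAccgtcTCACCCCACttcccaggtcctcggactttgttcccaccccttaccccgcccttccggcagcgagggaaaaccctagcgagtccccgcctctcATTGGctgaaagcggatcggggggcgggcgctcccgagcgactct
Hsd17b7: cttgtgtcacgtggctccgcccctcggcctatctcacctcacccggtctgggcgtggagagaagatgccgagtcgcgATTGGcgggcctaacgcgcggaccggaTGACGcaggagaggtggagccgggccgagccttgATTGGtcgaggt
Insig1: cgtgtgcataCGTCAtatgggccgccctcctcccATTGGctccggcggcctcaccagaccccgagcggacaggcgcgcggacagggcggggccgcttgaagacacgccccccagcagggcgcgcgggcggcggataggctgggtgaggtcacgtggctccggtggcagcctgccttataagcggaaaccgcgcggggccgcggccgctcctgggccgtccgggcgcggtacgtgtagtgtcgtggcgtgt
Lss: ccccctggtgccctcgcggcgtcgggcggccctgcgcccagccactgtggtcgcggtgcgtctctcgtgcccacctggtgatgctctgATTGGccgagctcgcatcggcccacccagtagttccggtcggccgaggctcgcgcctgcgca

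RefSeq promoters were matched for 22 of the 27 genes, in 28 windows of 300 bases, from 250 before to 50 after the start. Of these windows 67.9% held a CCAAT box, against 37.4% of all 32851 promoter windows. The core TGACG was in 35.7% of the windows of the members and in 20.8% of all windows. The full cAMP response element TGACGTCA, which contains that core, was in 0 of the 28 windows and in 1.79% of all. The sterol response element core was found in the Hmgcs1 window alone, 137 bases before the start, and in 1.24% of all windows. A match describes letters in a window and not a bound site, and sites with other letters were not searched.

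**Figure D1:**
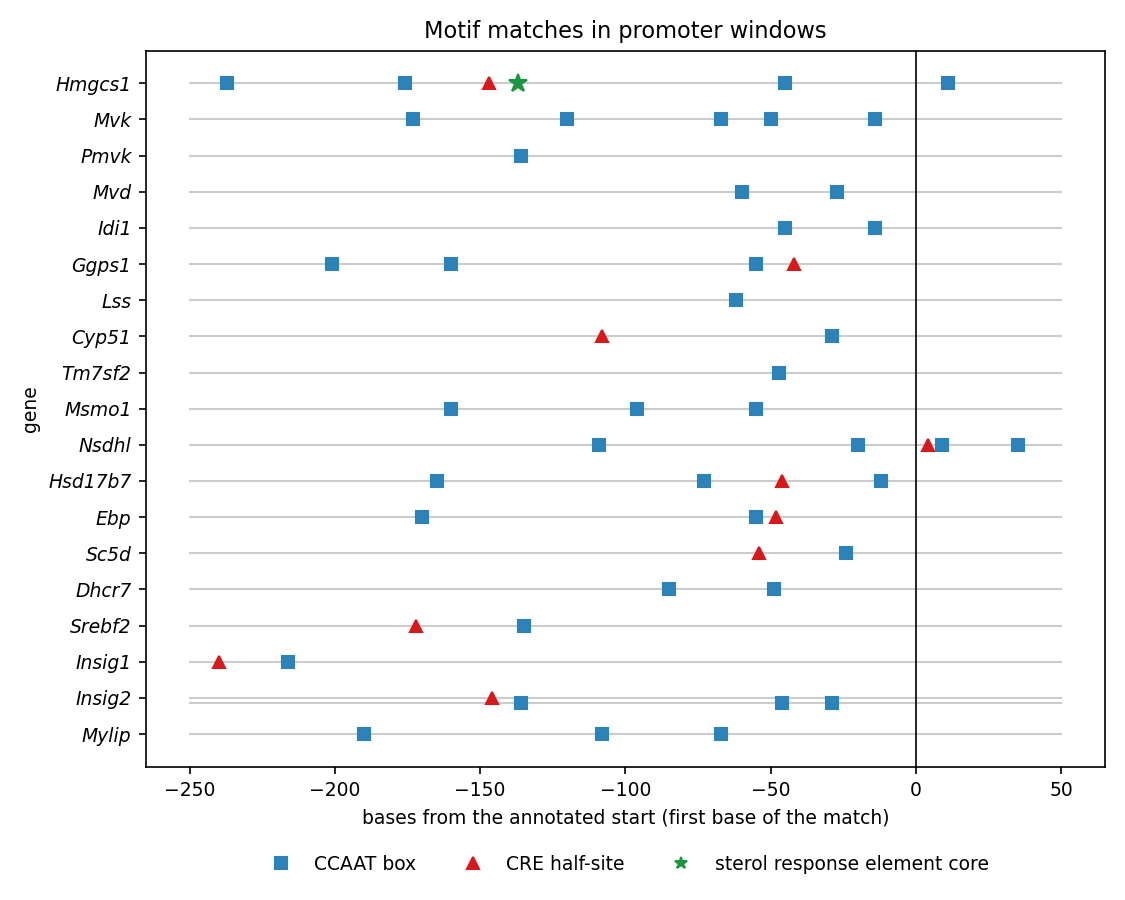
Motif matches on either strand along the promoter windows (grey lines) of the 19 members with a match, by distance in bases from the RefSeq start (x axis), with squares for CCAAT boxes, triangles for the TGACG core (labelled CRE half-site) and a star for the sterol response element core. CCAAT boxes are present in all 19 genes, and the star stands in Hmgcs1 alone, at -137.

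The libraries held 14056200 to 56282582 counts, and Pearson's r across genes between libraries of 1 group was 0.987 to 0.993. The labels do not name separate cultures, so the p-values cover the spread between libraries and no more, and that spread may be technical. Levels are TMM-scaled CPM, read counts put on 1 library size. Differences are log2 fold changes ± SE from edgeR's quasi-likelihood test on all 15 libraries, and a gene is called at a Benjamini-Hochberg adjusted p under 0.05. All 27 members passed the filter on low counts. In bulk RNA fewer cells of a type and less RNA per cell cannot be told apart. Markers of mature adipocytes were present in every group: the 10 listed summed to 7894 to 18753 CPM over the libraries, and Adipoq, which encodes adiponectin, averaged 693 CPM in FSK1D, the lowest group. Those markers were mostly called higher at 3 days: 10 of 10 in FSK3D and 9 in Rosi3D, where 25.9% and 28.6% of all genes were called higher. In FSK4h 4 were called higher and 1 lower, against 28.4% and 30.7% of all genes. In FSK1D 2 were called higher and 3 lower, near the 19.5% and 20.7% of all genes. The 7 macrophage markers summed to 2.30 to 3.45 CPM in Rosi3D, 2.94 to 3.15 CPM in vehicle, 5.58 to 5.82 CPM in FSK4h, 4.79 to 5.42 CPM in FSK1D and 3.30 to 4.87 CPM in FSK3D. Of the 2 that passed the filter, Csf1r was called higher at every forskolin time (1.67, 1.93 and 1.02) and Cd68 at none, with Adgre1, which encodes F4/80, at 0.0367 CPM or less in every library. The 4 smooth muscle markers summed to 53.0 to 53.4 CPM in Rosi3D, 253 to 262 CPM in vehicle, 186 to 203 CPM in FSK4h, 21.9 to 23.4 CPM in FSK1D and 56.5 to 65.8 CPM in FSK3D. The 6 progenitor markers summed to 377 to 418 CPM in Rosi3D, 719 to 763 CPM in vehicle, 622 to 702 CPM in FSK4h, 905 to 943 CPM in FSK1D and 712 to 780 CPM in FSK3D. Such sums hide differences between genes. Of the 5 progenitor markers tested, 2 were called higher and 1 lower in FSK1D, with a median log2 fold change of -0.60 (-0.94 to 1.83). In Rosi3D 0 were called higher and 5 lower, against 28.6% and 32% of all genes. Of the 4 smooth muscle markers, 1 was called higher (1.49) and 3 lower in Rosi3D. The part of such shifts in the results on the members was not tested.

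Per kilobase of gene length, Insig1 had the highest level in vehicle cells, at 160 ± 14.9 CPM per kb (SD, n = 3). Fdps, which builds farnesyl diphosphate, followed at 106 ± 7.86 and Msmo1, a sterol C4 methyl oxidase, at 97.9 ± 7.31 CPM per kb, and the levels of Fdps and Msmo1 differ by little more than 1 SD. Srebf2, Hmgcs1 and Sqle, the squalene epoxidase, came next at 66.3 ± 0.423, 64.9 ± 4.59 and 64.2 ± 2.88 CPM per kb, levels that do not differ beyond their spread. The pump Abca1 stood at 58.1 ± 2.27 CPM per kb. The lowest members were Idi1, the isopentenyl diphosphate isomerase, at 4.44 ± 0.494, and the pump Abcg1 at 3.20 ± 0.144 CPM per kb.

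Summed over the 19 synthesis enzymes, the level ran in 1 direction at 4 h of forskolin and in the other from 1 day on. The sum was 1738 ± 94.1 CPM in vehicle, 2351 ± 43.2 CPM in FSK4h, 1020 ± 28.9 CPM in FSK1D and 1334 ± 20.2 CPM in FSK3D (SD, n = 3 each). In Rosi3D it was 2432 ± 93.6 CPM, a gap to the FSK4h mean that is smaller than the SD of Rosi3D and larger than that of FSK4h. The sum of the efflux pumps Abca1 and Abcg1 was 615 ± 24.0 CPM in vehicle and 987 ± 47.1 CPM in FSK4h. It was 871 ± 14.3 CPM in FSK1D, 1102 ± 9.18 CPM in FSK3D and 957 ± 22.2 CPM in Rosi3D. Both sums fell from FSK4h to FSK1D and rose from there to FSK3D. The pump sum stayed above vehicle in FSK1D and FSK3D, where the enzyme sum was below it. Abca1 made up most of the pump sum, with a mean of 972 CPM in FSK4h. Such sums are led by their most abundant genes, which the gene-wise results below resolve. In FSK4h 6 of the 19 enzymes were called higher and 7 lower, near the 28.4% and 30.7% of all genes. Their median log2 fold change was 0.04, so the higher sum at 4 h does not stand for the enzymes at large.

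**Figure D2:**
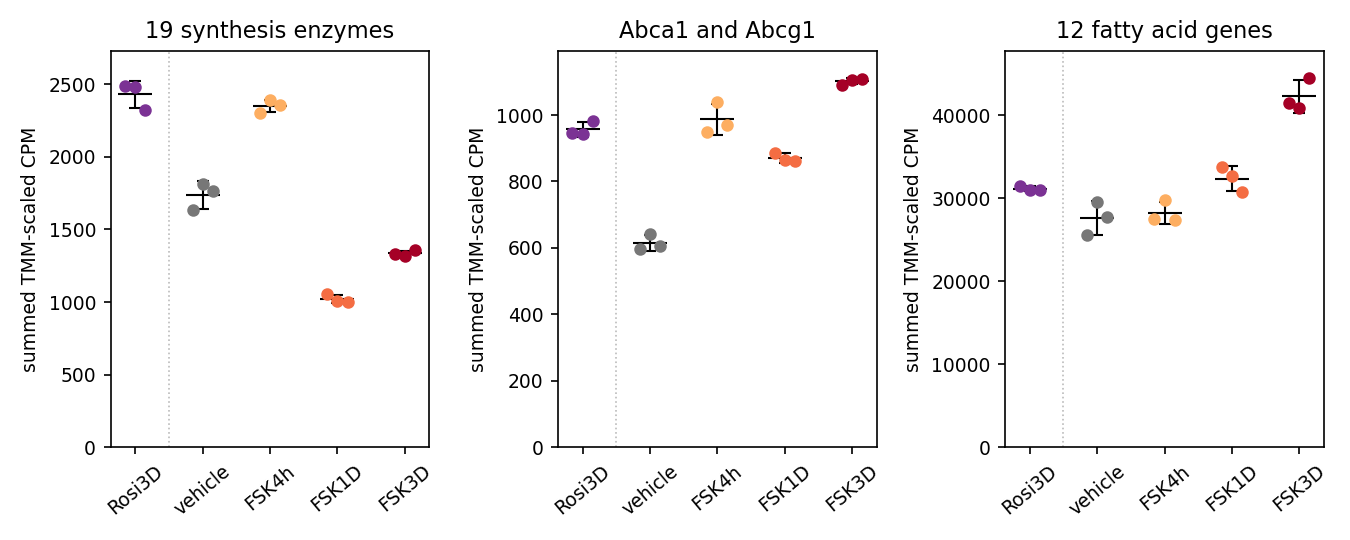
Summed TMM-scaled CPM (y axis, from 0) of the 19 synthesis enzymes, of Abca1 with Abcg1, and of 12 fatty acid genes in each library (points), with the mean and SD of 3 libraries as bars. The enzymes sum to 1020 CPM in FSK1D, the lowest group, while the pumps are lowest in vehicle at 615 CPM.

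After 4 h of forskolin members were called in both directions, and so were genes at large. Against vehicle, 11 of the 27 members rose and 9 fell, with a median log2 fold change of 0.07, against -0.03 over all genes tested. Of all genes tested, 28.4% were called higher and 30.7% lower, so the 9 of 27 that fell are near the share of all genes. Hsd17b7 rose most, by 1.83 ± 0.057 (edgeR adjusted p = 8.42e-24), followed by Hmgcs1, Abca1, Msmo1, Sqle, Stard4, Idi1, Cyp51, Insig1, Insig2 and Scap. Mylip fell most, and the other 8 that fell were synthesis enzymes or Abcg1: Mvk, Dhcr7, Abcg1, Nsdhl, Sc5d, Fdft1, Acat2 and Lss. Scaled by library size in place of TMM, all genes had a median of -0.23 and the calls were 9 higher and 13 lower among the members, against 2519 higher and 6708 lower among all genes. The falls of Acat2 (-0.17), Fdft1 (-0.18) and Lss (-0.13) were small. Fdft1 and Lss were lost with RLE scaling (-0.15 and -0.11) and with DESeq2 (-0.15 and -0.11), and each of the 3 was lost when single libraries were left out. Acat2 was lost without vehicle S2 (-0.12) or S3 (-0.16) or FSK4h S4 (-0.17) or S5 (-0.14), Fdft1 without vehicle S2 (-0.12) or S3 (-0.19) or FSK4h S5 (-0.11) or S6 (-0.18), and Lss without vehicle S2 (-0.07) or S3 (-0.11) or FSK4h S4 (-0.10), S5 (-0.12) or S6 (-0.12).

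By 1 day most of the pathway was below vehicle. In FSK1D 18 members fell and 3 rose, with a median of -0.66, against -0.02 over all genes, of which 20.7% were called lower and 19.5% higher. Of the 19 enzymes 15 fell and 0 rose, and 6 of them fell by at least 2-fold. The largest falls were in Mvd (-1.27 ± 0.075), Sc5d (-1.24 ± 0.060) and Nsdhl (-1.21 ± 0.064). The members that rose were Abcg1, Abca1 and Insig2. Ggps1, Tm7sf2, Hsd17b7, Ebp, Scap and Mylip were not called.

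At 3 days the enzymes were still low, but less evenly. In FSK3D 17 members fell and 5 rose, with a median of -0.33, against 0.01 over all genes, of which 27% were called lower and 25.9% higher. The members that rose were Abcg1, Abca1, Hmgcs1, Insig2 and Acat2, the last by only 0.15 ± 0.063 (edgeR adjusted p = 0.0408), a call that was lost without FSK3D S12 (0.06) and without vehicle S1 or S3 (0.12 and 0.17). The call of Acat2 was also lost with library size alone (0.14), without the ribosomal precursor Rn45s (0.14) and with only these 2 groups fitted (0.15). Mvd, Fdft1 and Mvk fell most. The fall of Dhcr7 (-0.25) was lost without FSK3D S10 (-0.21).

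In Rosi3D most of the enzymes were above vehicle. Here 17 members rose and 6 fell against vehicle, with a median of 0.28, against -0.01 over all genes, of which 28.6% were called higher and 32% lower. Insig1 (1.62 ± 0.052), Abcg1 (1.30 ± 0.086), Lss (1.15 ± 0.053) and Hmgcs1 (1.08 ± 0.048) rose most, and Srebf2, Mvk, Sqle, Stard4, Idi1 and Fdft1 fell. Some small calls were lost when single libraries were left out: Mvd (0.21) was lost without Rosi3D S13 (0.17), Ggps1 (0.25) without Rosi3D S13 (0.22) or vehicle S1 (0.23), and Fdft1 (-0.20) without Rosi3D S15 (-0.10) or vehicle S2 (-0.15). Ebp (0.17) was lost without Rosi3D S15 (0.14) or vehicle S1 (0.15) or S3 (0.16), and Idi1 (-0.29) without Rosi3D S14 (-0.26) or S15 (-0.24) or vehicle S2 (-0.27) or S3 (-0.19). Idi1 was also lost with RLE scaling, with the filter at 1 CPM and with DESeq2 (each -0.27), and Ebp with library size alone (0.14). These 4 comparisons share the vehicle libraries.

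**Figure D3:**
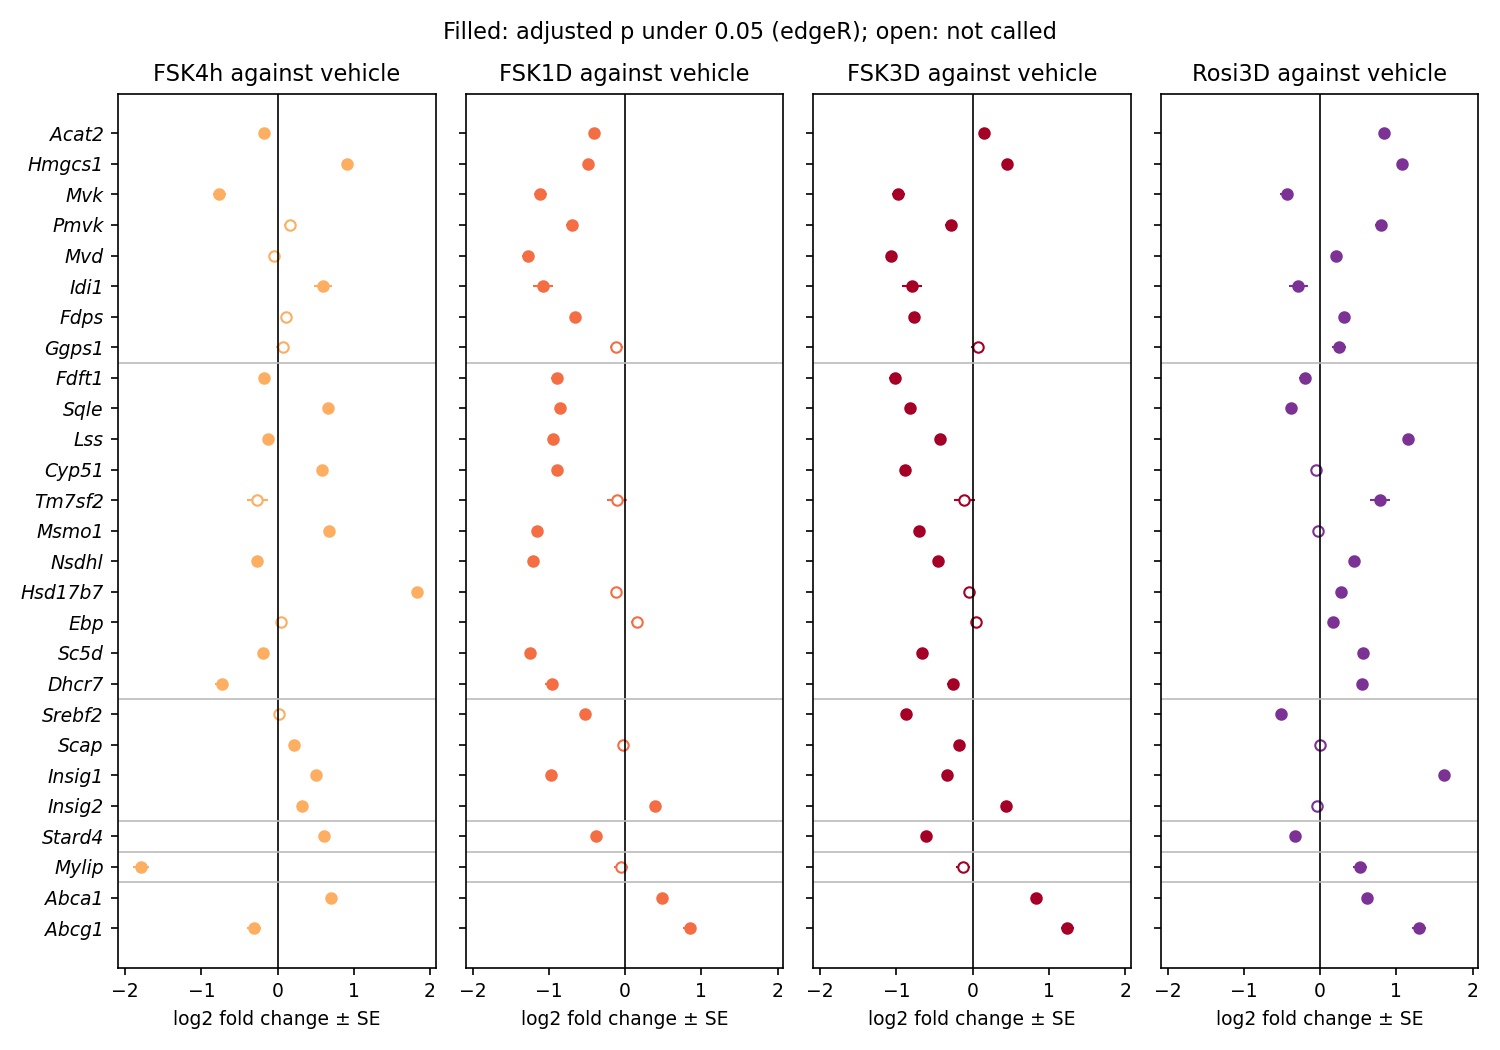
Log2 fold change against vehicle (x axis) of each of the 27 members (rows, grouped by role) in FSK4h, FSK1D, FSK3D and Rosi3D, with SE as bars and filled points for called members. Hsd17b7 at 1.83 and Mylip at -1.80 are the extremes of FSK4h, and Insig1 at 1.62 that of Rosi3D.

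The first steps from acetyl-CoA to isopentenyl diphosphate were led by Hmgcs1. Hmgcs1 stood at 213, 244 and 239 CPM in vehicle, 421, 434 and 457 CPM in FSK4h, 175, 162 and 162 CPM in FSK1D and 312, 326 and 316 CPM in FSK3D. In Rosi3D it stood at 491, 485 and 492 CPM. No 2 groups overlapped: it was above vehicle at 4 h (0.91 ± 0.048, edgeR adjusted p = 8.08e-18), below at 1 day (-0.48 ± 0.048, 3.34e-10) and above again at 3 days (0.46 ± 0.048, 6.87e-10). Hmgcs1 was the 1 member with the calls higher, lower and higher over the 3 forskolin times. Its promoter carries the sterol response element core shown above, and whether that core bears on the course of Hmgcs1 was not tested. A gene annotated on the opposite strand, not in the count table, overlaps 12.1% of its exon bases, and the strand setting of the counting is not given in the sources used here.

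Mvk, the mevalonate kinase, fell in all 4 comparisons. It held 42.8, 49.7 and 45.3 CPM in vehicle, 26.7, 27.6 and 26.9 CPM in FSK4h, 18.96, 20.7 and 24.1 CPM in FSK1D and 22.4, 21.6 and 25.6 CPM in FSK3D. Rosi3D libraries held 36.6, 33.4 and 31.1 CPM (-0.44 ± 0.081). The fall was -0.76 ± 0.082 at 4 h and -1.11 ± 0.084 at 1 day, where no library reached the lowest vehicle library. Mvd, the diphosphomevalonate decarboxylase, stood at 44.5, 47.6 and 48.8 CPM in vehicle, 47.6, 45.3 and 43.2 CPM in FSK4h, 20.1, 17.9 and 20.3 CPM in FSK1D and 21.8, 20.2 and 24.6 CPM in FSK3D. At 4 h Mvd did not pass the test (-0.05, 95% interval -0.20 to 0.11), though it was called lower with library size alone (-0.24, edgeR adjusted p = 0.00280), and it then fell to under every vehicle library.

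Idi1 was low in level and moved early: 11.3, 12.8 and 14.1 CPM in vehicle, 17.3, 22.9 and 17.8 CPM in FSK4h, 5.46, 5.60 and 6.97 CPM in FSK1D and 6.40, 8.36 and 7.38 CPM in FSK3D. It rose by 0.60 ± 0.12 at 4 h and was below vehicle by 1 day (-1.08 ± 0.13). Pmvk, the phosphomevalonate kinase, and Fdps lay on opposite sides of vehicle under the 2 drugs at 3 days. At 4 h of forskolin neither was called (0.16 and 0.11), though every FSK4h library lay above every vehicle library. Both were called higher at 4 h with RLE scaling (0.18 and 0.13) and with only these 2 groups fitted (0.17 and 0.12). The same held without vehicle S2 (0.23 and 0.17), and for Pmvk with DESeq2 (0.18). Pmvk held 26.2, 26.0 and 30.2 CPM in FSK3D, against 60.0, 56.9 and 57.7 CPM in Rosi3D, with 33.1, 36.0 and 31.6 CPM in vehicle. Fdps had 89.2, 87.5 and 96.6 CPM in FSK3D, 198, 204 and 173 CPM in Rosi3D and 142, 165 and 158 CPM in vehicle. Fdps was thus below vehicle in all FSK3D libraries and above it in all Rosi3D libraries. Fdps shares 1124 exon bases, 26.7% of its own, with Gm43738 on the same strand, a gene not in the count table. Acat2, the acetoacetyl-CoA thiolase of the cytosol, was at 97.9, 92.6 and 94.5 CPM in Rosi3D, against 50.1, 56.3 and 53.8 CPM in vehicle (0.83 ± 0.061). Its near copy Acat3 had 1.32 to 2.81 CPM in all libraries, and reads shared between them cannot be told apart. Ggps1, which diverts the chain to geranylgeranyl diphosphate, did not pass the test at any forskolin time, with 95% intervals against vehicle between -0.31 and 0.27, and rose by 0.25 ± 0.088 in Rosi3D.

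**Figure D4:**
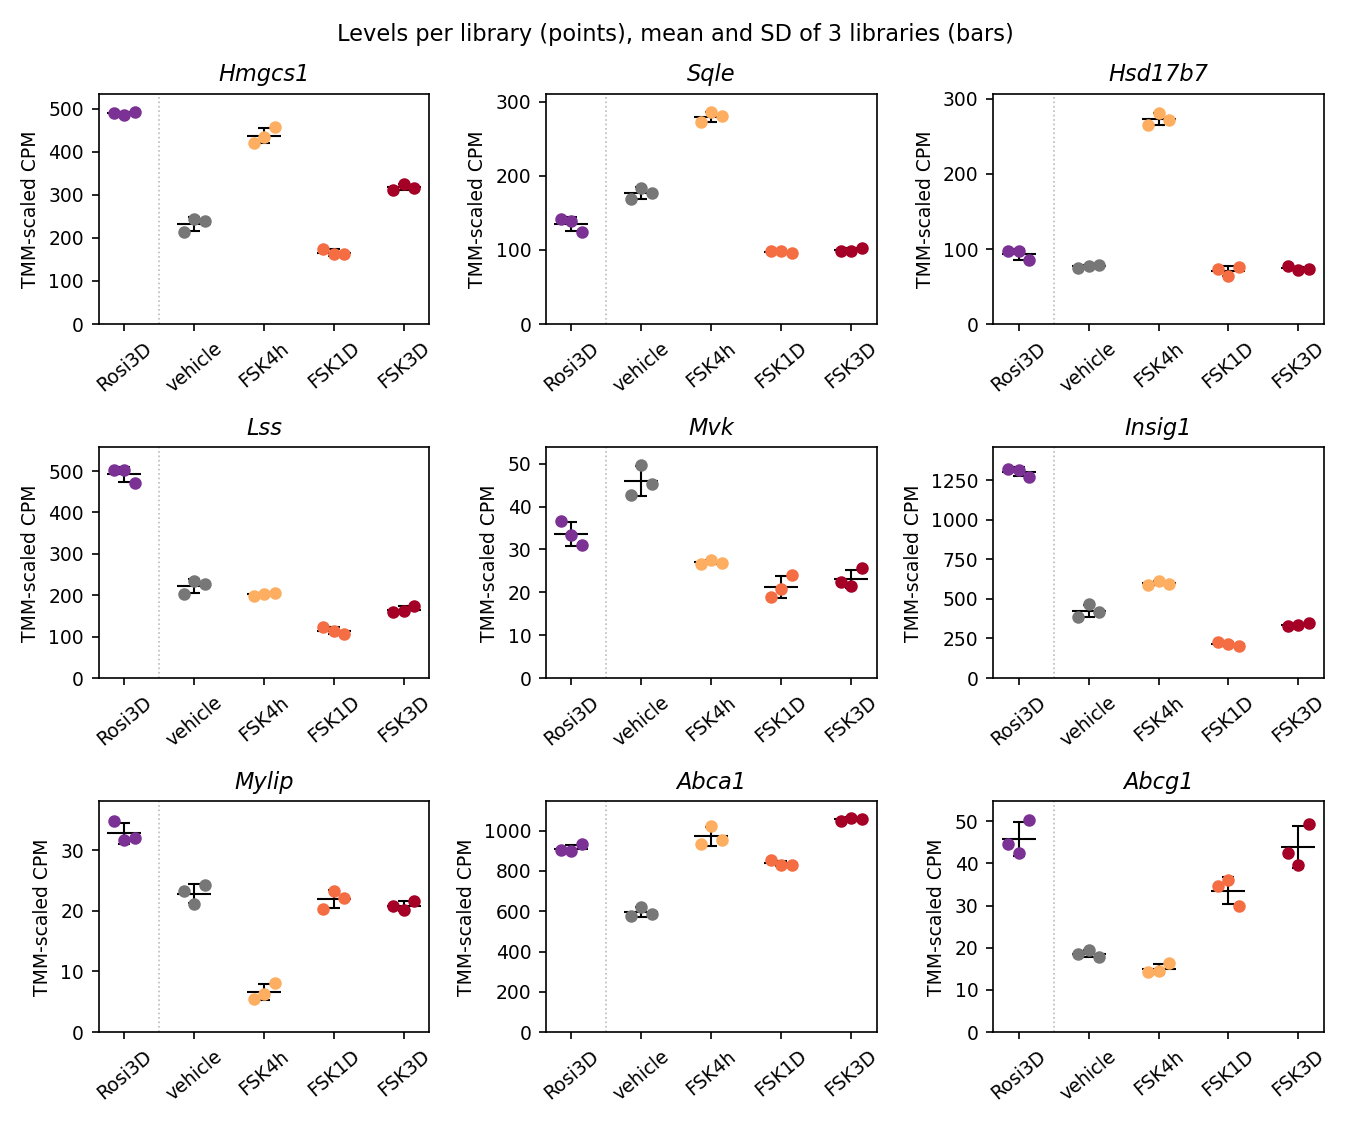
TMM-scaled CPM (y axis, from 0) of selected members in each library (points), with the mean and SD of 3 libraries as bars, in Rosi3D, vehicle, FSK4h, FSK1D and FSK3D. Hsd17b7 stands at 266 to 282 CPM in FSK4h, against 74.7 to 78.8 CPM in vehicle, and Insig1 at 1270 to 1320 CPM in Rosi3D, against 387 to 465 CPM in vehicle.

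Among the 11 enzymes from squalene to cholesterol, Hsd17b7 had the largest early change. Hsd17b7 held 74.7, 77.3 and 78.8 CPM in vehicle, 266, 282 and 271 CPM in FSK4h, 73.2, 63.8 and 76.1 CPM in FSK1D and 77.0, 72.4 and 73.6 CPM in FSK3D. Every FSK4h library was above every other forskolin or vehicle library, and from 1 day on the groups overlapped with vehicle. Hsd17b7 was not called at 1 day (-0.11, 95% interval -0.24 to 0.02) or at 3 days (-0.05, -0.18 to 0.08), and FSK3D lay 1.87 ± 0.058 below FSK4h on the log2 scale. Its product reduces the 3-keto group of the sterol and also has a reported role in estradiol synthesis. Its promoter stretch above holds 1 TGACG core, 46 bases before the start, and CCAAT boxes on the opposite strand. That core also lay in windows of Hmgcs1, Cyp51, Insig1 and Insig2, called higher at 4 h, and of Sc5d and Nsdhl, called lower. In Nsdhl it lay after the start. Windows of Ggps1, Ebp and Srebf2, not called at 4 h, held it too. No window of Idi1, Msmo1, Scap or Abca1, also called higher, held it, nor of Mvk, Dhcr7, Mylip, Acat2 or Lss, called lower. Sqle and Stard4, called higher, had no promoter matched. Whether the core bears on these changes was not tested.

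Sqle, which makes the epoxide that the ring closure needs, Cyp51, the lanosterol demethylase, and Msmo1 shared 1 course. Sqle stood at 168, 184 and 177 CPM in vehicle, 272, 286 and 280 CPM in FSK4h, 98.4, 98.7 and 96.2 CPM in FSK1D and 98.9, 99.2 and 103 CPM in FSK3D. Msmo1 had 164, 181 and 190 CPM in vehicle, 279, 297 and 278 CPM in FSK4h, 85.9, 73.1 and 80.4 CPM in FSK1D and 115, 113 and 101 CPM in FSK3D. All 3 genes were called higher at 4 h (Cyp51 by 0.58 ± 0.046) and lower at 1 and 3 days. With Idi1, Insig1 and Stard4 they make up the 6 members that had the calls higher, lower and lower. In Rosi3D these genes did not rise: Sqle fell (-0.38 ± 0.048), and Cyp51 (-0.06, 95% interval -0.16 to 0.04) and Msmo1 (-0.03, -0.17 to 0.11) were not called. Cyp51 shares 166 exon bases with Akap9 on the opposite strand.

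Lss and the late enzymes Nsdhl, Sc5d and Dhcr7 took another course. Lss stood at 203, 235 and 227 CPM in vehicle, 199, 204 and 205 CPM in FSK4h, 124, 113 and 107 CPM in FSK1D and 160, 161 and 175 CPM in FSK3D. In Rosi3D it held 503, 501 and 470 CPM, more than any other library held. Sc5d, the sterol C5 desaturase, had 116, 127 and 124 CPM in vehicle, 104, 109 and 107 CPM in FSK4h, 55.1, 50.7 and 49.2 CPM in FSK1D and 81.1, 80.04 and 70.01 CPM in FSK3D, with 185, 190 and 166 CPM in Rosi3D. Lss and Sc5d were thus at or below vehicle at every forskolin time and above it in every Rosi3D library. Dhcr7, a reductase of the last steps, held 31.6, 34.9 and 33.5 CPM in vehicle, 19.1, 21.5 and 19.7 CPM in FSK4h, 18.2, 17.1 and 15.9 CPM in FSK1D and 26.6, 26.5 and 30.4 CPM in FSK3D. Dhcr7 had fallen by 0.74 ± 0.079 at 4 h, when Sqle had risen. Nsdhl, which removes the sterol C4 carboxyl group, fell by 1.21 ± 0.064 at 1 day and by 0.46 ± 0.062 at 3 days, and rose by 0.45 ± 0.059 in Rosi3D.

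Fdft1, the squalene synthase, was called lower at every forskolin time. At 4 h the fall was small (-0.18), and its call was lost with RLE scaling, with DESeq2 and without some single libraries. Fdft1 stood at 32.5, 29.2 and 34.4 CPM in FSK3D, against 62.7, 69.4 and 63.9 CPM in vehicle (-1.02 ± 0.074, edgeR adjusted p = 1.79e-13). It shares 774 exon bases, 18.3% of its own, with the cathepsin gene Ctsb on the opposite strand. Tm7sf2, a sterol reductase, stood at 19.7, 20.6 and 18.8 CPM in Rosi3D, against 10.3, 12.4 and 11.7 CPM in vehicle (0.79 ± 0.13), and was not called at any forskolin time, though it was called lower at 4 h with library size alone (-0.46, edgeR adjusted p = 0.00269) and without FSK4h S5 (-0.40), and without FSK3D S12 at 3 days (-0.33). Tm7sf2 shares 532 exon bases with Vps51 on the same strand, so that these reads cannot be assigned. Ebp, the sterol isomerase, was not called at any forskolin time: at 4 h its log2 fold change was 0.04 (95% interval -0.11 to 0.19) with TMM and -0.15 (edgeR adjusted p = 0.0448) with library size alone. At 1 day its value of 0.15 (edgeR adjusted p = 0.0740) was called with RLE scaling, with the filter at 1 CPM, with DESeq2 and with only these 2 groups fitted (each 0.17), and without vehicle S2 or FSK1D S7 (0.22 each).

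The sterol sensors did not move as 1 unit. Insig1 held 387, 465 and 418 CPM in vehicle, 590, 613 and 593 CPM in FSK4h, 228, 218 and 202 CPM in FSK1D and 329, 334 and 345 CPM in FSK3D. In Rosi3D it held 1320, 1315 and 1270 CPM, above every other library by a wide gap. Its related gene Insig2 changed little and in 1 direction under forskolin: 50.3, 50.7 and 57.0 CPM in vehicle, 64.0, 67.4 and 65.8 CPM in FSK4h, 64.3, 70.6 and 71.5 CPM in FSK1D and 68.8, 76.8 and 69.4 CPM in FSK3D. Insig2 was called higher at all 3 times (0.32 ± 0.060, 0.39 ± 0.060 and 0.44 ± 0.061), though at 4 h not with library size alone (0.13). In Rosi3D Insig2 was at 49.5, 50.5 and 52.9 CPM, within the range of vehicle (-0.05, 95% interval -0.18 to 0.09).

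Srebf2 itself never rose. Srebf2 stood at 303, 305 and 301 CPM in vehicle, 309, 308 and 300 CPM in FSK4h, 208, 214 and 207 CPM in FSK1D and 162, 160 and 173 CPM in FSK3D. In Rosi3D it held 216, 215 and 204 CPM, below all vehicle libraries (-0.52 ± 0.043, edgeR adjusted p = 1.13e-12). Of the 19 enzymes 13 were called higher and 4 lower in Rosi3D, against 28.6% and 32% of all genes. At 4 h Srebf2 was not called with TMM (0.01, 95% interval -0.08 to 0.11) and was called lower with library size alone (-0.18, edgeR adjusted p = 3.50e-04). Srebf2 was lower in FSK1D than in FSK4h (-0.54 ± 0.043) and lower in FSK3D than in FSK1D (-0.34 ± 0.043), whereas the summed enzymes were higher in FSK3D than in FSK1D. Scap was higher at 4 h (0.22 ± 0.047), though not with library size alone (0.03), and lower at 3 days (-0.18 ± 0.048).

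Stard4, which carries cholesterol between membranes, held 72.1, 82.4 and 77.9 CPM in vehicle, 116, 120 and 119 CPM in FSK4h, 58.9, 60.7 and 58.4 CPM in FSK1D and 50.05, 51.3 and 50.6 CPM in FSK3D. It was above all vehicle libraries at 4 h and below them later (0.61 ± 0.056, -0.38 ± 0.058 and -0.61 ± 0.059). Mylip, the ligase that marks lipoprotein receptors for breakdown, had 23.2, 21.1 and 24.3 CPM in vehicle, 5.53, 6.23 and 8.11 CPM in FSK4h, 20.3, 23.3 and 22.2 CPM in FSK1D and 20.8, 20.1 and 21.7 CPM in FSK3D. The fall at 4 h (-1.80 ± 0.10, edgeR adjusted p = 1.29e-16) was followed by levels that overlapped with vehicle at 1 day. In Rosi3D Mylip rose to 34.8, 31.6 and 32.0 CPM (0.53 ± 0.090).

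The efflux pumps, both known LXR targets, parted at 4 h and were both above vehicle later. Abca1, which loads cholesterol onto apolipoprotein A-I, stood at 579, 623 and 588 CPM in vehicle, 935, 1025 and 955 CPM in FSK4h, 852, 828 and 831 CPM in FSK1D and 1049, 1065 and 1060 CPM in FSK3D. Abcg1, which feeds mature HDL particles, had 18.6, 19.4 and 17.8 CPM in vehicle, 14.2, 14.5 and 16.4 CPM in FSK4h, 34.6, 36.0 and 29.9 CPM in FSK1D and 42.4, 39.7 and 49.3 CPM in FSK3D. Abca1 rose at 4 h (0.70 ± 0.043), when Abcg1 fell (-0.31 ± 0.092, edgeR adjusted p = 0.00408). Abcg1 was then higher at 1 day (0.85 ± 0.087) and at 3 days (1.24 ± 0.087). In Rosi3D Abca1 held 903, 900 and 932 CPM and Abcg1 44.5, 42.4 and 50.3 CPM, all above vehicle. Mylip, Abca1 and Abcg1 were thus called lower, higher and lower at 4 h, and all 3 higher in Rosi3D.

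**Figure D5:**
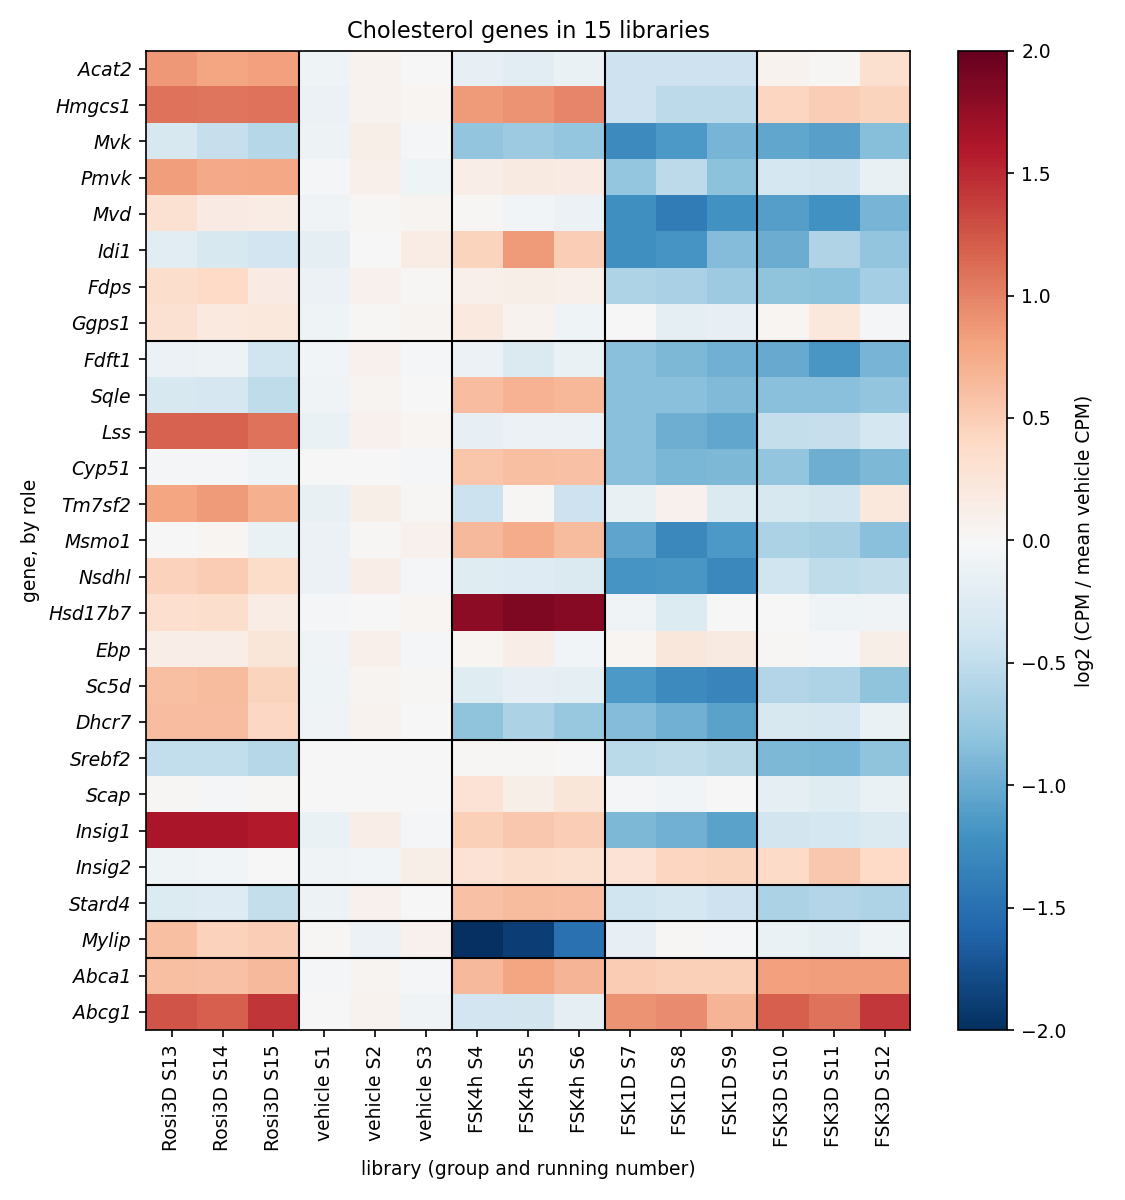
Log2 ratio of the TMM-scaled CPM of each member (rows, grouped by role) in each library (columns) to its mean CPM in vehicle, on a colour scale that ends at -2 and 2. In the FSK1D libraries 15 of the 19 enzymes were called lower, against 20.7% of all genes. Of these 15, Fdps and Fdft1 have lower means still in FSK3D, but 0 of the 19 enzymes were called lower in FSK3D than in FSK1D. Without FSK3D S12, Fdps was called lower (-0.16).

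Between the forskolin times the turn was steep. Against FSK4h, 21 members were lower and 2 higher in FSK1D, with a median of -0.77 against 0.01 over all genes, of which 28.9% were called lower and 28.4% higher. The 2 that were higher were Mylip (1.74 ± 0.11) and Abcg1 (1.16 ± 0.089), and Hsd17b7 (-1.94 ± 0.058), Msmo1 (-1.84 ± 0.064) and Idi1 (-1.68 ± 0.13) had the largest differences the other way. The fall of Dhcr7 (-0.23) was lost without FSK4h S5 or FSK1D S9 (-0.18 each). Scaled by library size alone, all genes had a median of 0.17, and 16 members were lower and 5 higher, against 2709 and 5974 of all genes. That scaling ended the calls of Dhcr7 (-0.06), Acat2 (-0.07), Mvk (-0.18), Scap (-0.08) and Abca1 (-0.05). FSK3D set against FSK1D gave 12 members higher and 3 lower, with a median of 0.18 against 0.02 over all genes, of which 25.2% were called higher and 25.8% lower. Hmgcs1 (0.94 ± 0.049), Nsdhl (0.75 ± 0.066), Dhcr7 (0.71 ± 0.083) and Insig1 (0.64 ± 0.052) had the largest differences. Sc5d (0.57 ± 0.062), Acat2 (0.56 ± 0.065) and Lss (0.53 ± 0.055) followed, and Srebf2, Stard4 and Scap were the 3 lower. Sqle (0.04, 95% interval -0.08 to 0.15) and Cyp51 (0.00, -0.11 to 0.11) were not called. With the harvest time of vehicle not given, time under forskolin and time in culture cannot be told apart. The small rise of Mvd (0.21) was lost without FSK3D S12 (0.11) or FSK1D S8 (0.14) and with only these 2 groups fitted (0.19).

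Against FSK4h, 18 members were lower and 5 higher in FSK3D, with a median of -0.44 against 0.03 over all genes, of which 33.5% were called lower and 35% higher. The 5 were Mylip, Abcg1, Dhcr7, Acat2 and Abca1. Abca1 differed by only 0.12 ± 0.043, a call that was lost without FSK4h S4 (0.09) or FSK4h S6 (0.10), and Mvk (-0.21) was lost without FSK3D S10 (-0.19) or S11 (-0.16) or FSK4h S5 (-0.21). With library size alone 15 members were lower and 8 higher, against 3523 and 6558 of all genes, whose median moved to 0.20. That scaling ended the calls of Mvk (-0.04), Nsdhl (-0.01) and Lss (-0.11).

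At 3 days the drugs left the synthesis enzymes at different levels. In FSK3D 22 members were lower than in Rosi3D and 2 higher, with a median of -0.65 against 0.00 over all genes, of which 20.7% were called lower and 22.5% higher. Of the 19 enzymes 17 were lower and 0 higher. Insig1 differed most (-1.95 ± 0.053, edgeR adjusted p = 1.17e-24), with 329 to 345 CPM in FSK3D libraries, against 1270 to 1320 CPM in Rosi3D libraries, followed by Lss (-1.57 ± 0.054), Mvd (-1.28 ± 0.075) and Sc5d (-1.23 ± 0.059). Insig2 (0.49 ± 0.061) and Abca1 (0.21 ± 0.043) were the 2 that were higher. Abcg1 did not differ beyond its error (-0.05, 95% interval -0.24 to 0.13), nor did Ebp or Ggps1 pass the test, though Ggps1 was lower without FSK3D S11 (-0.25).

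Beyond the 27, 31 of 32 listed genes of cholesterol transport, storage and sterol regulation were tested. Of all genes tested, 28.4% were called higher and 30.7% lower in FSK4h, 19.5% and 20.7% in FSK1D, 25.9% and 27% in FSK3D and 28.6% and 32% in Rosi3D, and the counts of the lists below stand against these shares. The 31 numbered 9 higher and 8 lower in FSK4h, 13 and 5 in FSK1D, 16 and 6 in FSK3D and 17 and 6 in Rosi3D, with median log2 fold changes of -0.04, 0.12, 0.16 and 0.21, against -0.03 to 0.01 over all genes. Their shares in FSK4h are near those of all genes. The receptor gene Vldlr rose at every forskolin time (0.65, 0.91 and 1.32) and in Rosi3D (1.46 ± 0.13). Soat1, which esterifies cholesterol for storage, was higher at 4 h (0.80 ± 0.053) and 1 day (0.16 ± 0.054) and lower at 3 days (-0.47 ± 0.056) and in Rosi3D (-0.91 ± 0.056), while Nceh1, a hydrolase of cholesteryl esters, was lower from 1 day on and in Rosi3D (-1.64 ± 0.11). Lrp1, a lipoprotein receptor, rose at 1 day (0.97 ± 0.051) and fell in Rosi3D (-0.86 ± 0.051). Scarb1, the HDL receptor, was lower in FSK3D (-0.38 ± 0.053) and higher in Rosi3D (0.74 ± 0.052). Gramd1b, which draws cholesterol from the plasma membrane to the endoplasmic reticulum, was higher in FSK3D (1.02 ± 0.067) and in Rosi3D (1.72 ± 0.066). Cyp27a1, the sterol 27-hydroxylase of mitochondria, fell by 2.09 ± 0.14 at 1 day and was not called at 3 days (0.01 ± 0.12).

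Among 6 LXR targets outside the members, 2 were higher and 2 lower in FSK4h, 4 and 2 in FSK1D, 4 and 0 in FSK3D and 4 and 1 in Rosi3D, with 2 of 6 in either direction in FSK4h near the shares of all genes. Nr1h3, the gene of LXRα, rose in FSK1D (0.35 ± 0.092), FSK3D (0.81 ± 0.092) and Rosi3D (1.62 ± 0.090), and Srebf1 fell at 4 h (-1.23 ± 0.096) and was higher later (0.39, 0.57 and, in Rosi3D, 0.48). Nr1h3 is also in the transport list and Srebf1 in the fatty acid list. Of 12 SREBP-1 fatty acid genes, 2 were higher and 7 lower in FSK4h, 3 and 8 in FSK1D, 6 and 4 in FSK3D and 8 and 1 in Rosi3D. Fasn, the fatty acid synthase, fell at 4 h (-1.09 ± 0.072) and 1 day (-1.28 ± 0.073) and was not called at 3 days (0.05 ± 0.071). Of 9 genes listed as users of isoprenoids, among them Uba1, which is not one, 4 were higher and 2 lower in FSK4h, 3 and 1 in FSK1D, 4 and 2 in FSK3D and 6 and 2 in Rosi3D. Uba1 is 1 of those higher in FSK4h and 1 of those lower in each of the other 3, and the shares of the list that were lower are near or below those of all genes. Nus1, a subunit of the enzyme that lengthens farnesyl diphosphate into dolichol chains, rose by 2.18 ± 0.047 at 4 h, more than any of the 27 members did.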

How the data were processed

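The authors deposited 1 table of raw counts per gene, together with other gene fields such as the length in bases. The submitters' processing notes name fastp, STAR, featureCounts and the build GRCm38 (mm10). Which versions, annotation, strand setting and read-pair setting were used is not given in the sources used here. Counts were fitted in edgeR 4.0.16 (R 4.3.3) over all 15 libraries, with filterByExpr (14421 genes kept), TMM scaling, 1 mean per group, and a robust quasi-likelihood fit (10 residual degrees of freedom). P-values are two-sided, Benjamini-Hochberg adjusted over all genes tested, and called under 0.05. The 95% intervals take the SE with 10 degrees of freedom, fewer than the test uses, so they are wider than the p-values imply. The common biological coefficient of variation was 5.97%, and the fit was tested on simulated data. The ribosomal precursor Rn45s took 4.15% to 5.79% of counts in FSK3D and 6.27% to 8.87% in the other groups. Columns carry a group and a running number (S1 to S15), which names a library here. Within groups the chi-square per degree of freedom between libraries was 3.12 to 11.2, so none was counted as a repeat of another. Alternatives were other scalings, filters, DESeq2 1.42.0, pairwise fits, Rn45s left out and each library left out. Per-library values are given, per role, for the members with the largest changes and those whose calls differ in direction. The members and lists were chosen with earlier results of these data known. Promoters are RefSeq's (GRCm38.p6), and exon overlaps come from GENCODE vM21.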

Additional observations from a re-analysis of the deposited data

Results flagged for a closer look

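The members listed here were called in opposite directions in a pair of conditions, each against vehicle, and the difference between the pair was itself called. Both conditions are set against the same vehicle libraries. All values are log2 fold changes from edgeR's quasi-likelihood test.

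Between FSK1D and FSK4h, genes that were below vehicle at 1 day and above it at 4 h differed by -1.84 (Msmo1), -1.68 (Idi1), -1.52 (Sqle), -1.47 (Cyp51), -1.47 (Insig1), -1.40 (Hmgcs1) and -0.996 (Stard4). The pump Abcg1 went the other way, with a difference of 1.16.

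Between FSK3D and FSK4h the same kind of crossing was seen for Sqle (-1.48), Cyp51 (-1.46), Idi1 (-1.40), Msmo1 (-1.38), Stard4 (-1.22), Insig1 (-0.83) and Scap (-0.40). Abcg1 (1.55) and Acat2 (0.33) were above vehicle at 3 days and below it at 4 h. Between FSK3D and FSK1D, Hmgcs1 (0.94) and Acat2 (0.56) were above vehicle at the later time and below it at the earlier.

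Between the drugs at 3 days, members below vehicle in FSK3D and above it in Rosi3D differed by -1.95 (Insig1), -1.57 (Lss), -1.28 (Mvd), -1.23 (Sc5d), -1.08 (Pmvk), -1.07 (Fdps), -0.91 (Nsdhl) and -0.81 (Dhcr7). Some of the single values behind these differences were small, such as Mvd in Rosi3D (0.21), Acat2 in FSK4h (-0.17) and in FSK3D (0.15), and Scap in FSK3D (-0.18).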

How the results depend on the processing

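Counts of members called higher or lower stayed within 1.5 times the main count in all 8 comparisons under every alternative run, except with library size alone. That scaling gave 5 members higher in FSK1D against FSK4h, where TMM gave 2, and 8 in FSK3D against FSK4h, where TMM gave 5. It also turned the sign of Ebp (-0.15) and Srebf2 (-0.18) in FSK4h against vehicle. Of the 216 gene-wise results, those that kept their direction and their side of the threshold numbered 194 with library size alone, 210 with RLE scaling, 211 with DESeq2, 211 with only the 2 groups compared, 213 with the 1 CPM filter, 215 without Rn45s and 216 with no filter. Over all single libraries left out it was 1248 of 1296. Where this changed a call, the cause was not tested. No paired analysis was possible because the columns do not carry the replicate numbers of the labels. Depth was lowest for Idi1, with 122 to 629 counts per library.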
